A study of Mus musculus with 12 samples.

Results

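Lipopolysaccharide (LPS) given on top of donor antigen and costimulation blockade was compared with antigen and blockade alone, in sorted mouse CD8 T cells and across all genes of the count table. The comparison uses 6 of the 12 RNA sequencing libraries of the study, 3 labelled with LPS (called inflamed here) and 3 without it (called tolerized), taken by their treatment label and not by any measured value. The cells are KB5 CD8 T cells from spleens of mice of CBA/J background, and the KB5 T cell receptor, a transgene, recognises a class I molecule of C57BL/6 mice. They were recovered at 12 h after treatment and sorted with antibodies against the KB5 receptor and CD8, to 95% purity by the labels. Tolerized mice received 10000000 C57BL/6 splenocytes into a vein and 0.5 mg of anti-CD154 antibody into the peritoneum. Inflamed mice received the same cells and antibody and 100 µg of LPS into the peritoneum, so donor antigen and blockade are common to both groups. Activated mice (3 libraries) received the splenocytes alone, and naive mice (3 libraries) were untreated. None of the 12 libraries came from mice given LPS without antigen and antibody. Age and sex of the mice and how they came to carry KB5 cells are not given in the sources used here, nor is it stated that each library came from a separate mouse, and p-values therefore speak only to the spread among these samples, which may be technical.

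LPS is a component of the outer membrane of Gram-negative bacteria that is sensed through the receptor TLR4, mostly by macrophages, dendritic cells and other innate cells, which then release type I interferon, IL-6, IL-12 and related cytokines. A T cell exposed to type I interferon activates a complex of STAT proteins and the factor IRF9, which binds interferon response elements in the promoters of antiviral genes, whereas IL-6 and IL-12 signal mainly through STAT3 and STAT4. CD154 (CD40 ligand) engages CD40 on antigen-presenting cells, and its blockade at the time of donor cell transfer is used to make T cells tolerant of the donor. Inflammatory stimuli given with such blockade are known to interfere with that tolerance.

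The tolerized libraries held between 29335723 and 46145829 reads assigned to genes and the inflamed libraries between 35822132 and 53432765. The table lists 16353 genes, of which 12482 passed the filter on low counts and were tested. The sort was checked on its markers: Cd8a stood at 959, 873 and 1030 CPM (read counts scaled to a library of 1000000) in tolerized 1, 2 and 3 and at 1415, 1468 and 1556 CPM in inflamed 1, 2 and 3, Cd3e at 303, 317 and 318 and 334, 318 and 278 CPM, and Cd4 at 4.63, 3.68 and 5.44 and 3.15, 3.95 and 3.40 CPM. Not all markers of other cells were low. The regulatory T cell gene Foxp3 stood at 49.9, 34.9 and 37.8 CPM in tolerized and at 38.9, 31.8 and 40.8 CPM in inflamed libraries. The erythroid gene Hbb-b1 stood at 25.3, 72.1 and 22.3 CPM and at 50.1, 56.0 and 9.06 CPM. The natural killer cell gene Klra8 and the platelet genes Pf4 and Gp9 were at or near 0 in all 6. The difference of Cd8a between the groups passed the test used below (adjusted p = 0.0429) but in none of the fits that left out 1 of the 6 libraries. Values below are listed in the order of replicates 1, 2 and 3.

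Some libraries stood apart from their group. Tolerized 3 carried the highest mitosis transcripts of the 6, with Mki67, a marker of dividing cells, at 2.96, 48.5 and 301 CPM in tolerized 1, 2 and 3, and within its group it was also highest in the effector cell gene Cxcr3 (5.66, 4.78 and 50.0 CPM). Inflamed 1 carried the most transcripts of innate cells. The 19 listed neutrophil markers summed to 4.18, 5.04 and 13.6 CPM in the tolerized and to 377, 154 and 17.5 CPM in the inflamed libraries. The 22 monocyte and macrophage markers summed to 264, 233 and 161 CPM and to 1048, 396 and 86.4 CPM, so that inflamed 3 lay below every tolerized library. The 20 B cell and plasma cell markers summed to 304, 434 and 547 CPM and to 595, 453 and 260 CPM. In bulk RNA, fewer cells of a type and less RNA per cell cannot be told apart.

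**Figure D1:**
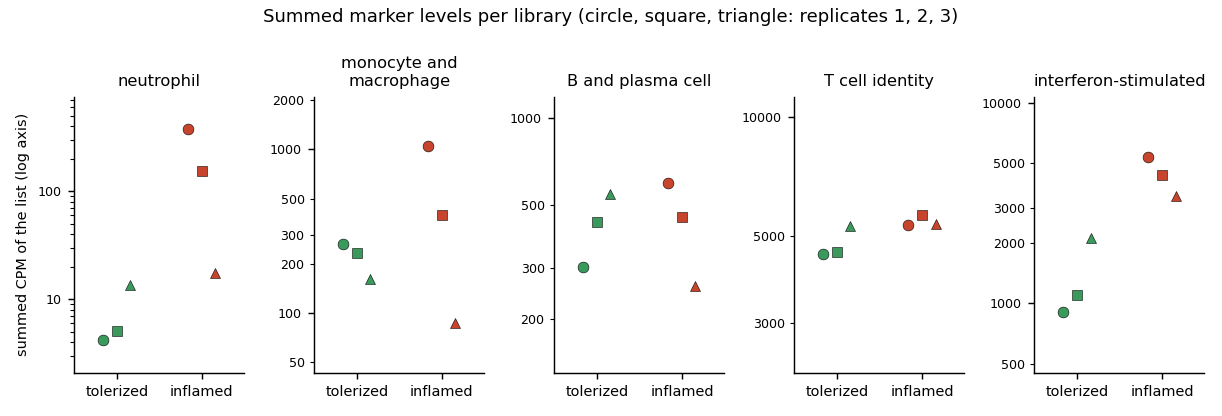
Summed CPM of 5 gene lists (panels, log axes) in the 3 tolerized (green) and 3 inflamed (red) libraries, each point 1 library. Neutrophil sums reached 377 CPM in inflamed 1 and 17.5 CPM in inflamed 3, macrophage sums of the groups overlapped, and the interferon-stimulated sums of the groups did not overlap.

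LPS changed a small set of genes, and most of the large changes were rises. Of the 12482 genes tested, 208 were higher and 140 lower in inflamed than in tolerized cells at a Benjamini-Hochberg adjusted p under 0.05 (limma), which is 1.67% and 1.12%, or 348 genes and 2.79% together. In each of these 348 genes the 3 inflamed libraries all lay on one side of the 3 tolerized libraries. Non-overlap alone was far more common, with 1140 genes (9.13%) higher and 1146 (9.18%) lower. At least 2-fold changes on the log2(CPM + 1) scale were 120 of the rises and 54 of the falls. The median difference of all tested genes was -0.01 on that scale, and the 95% interval of 10354 genes (83.0%) did not reach 2-fold in either direction. Differences below are inflamed minus tolerized on the log2(CPM + 1) scale, and this scale understates the change of genes near 1 CPM. The SE beside each is that of the limma fit. It takes the spread from all 12 libraries and draws it towards that of other genes, so it is not the spread of these 6 libraries alone.

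How many genes passed depended on the libraries in the fit. The fit used the spread of all 12 libraries, and with the tolerized and inflamed libraries alone 158 genes passed, 112 higher and 46 lower, 146 of them among the 348. With replicate numbers as a block in these 2 groups 0 genes passed (limma-trend, smallest adjusted p = 0.0638), though these numbers are not shown to be pairs. Leaving out 1 library gave 539 genes without tolerized 1 (335 of them lower), 156 without tolerized 2, 177 without inflamed 1 and 173 without inflamed 2, and without both tolerized 3 and inflamed 1 it gave 193. When each tolerized or inflamed library was left out in turn, 140 genes, 93 higher and 47 lower, were called in all 6 fits. Genes named below as risen or fallen are among these 140 unless a lost call is given beside them.

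**Figure D2:**
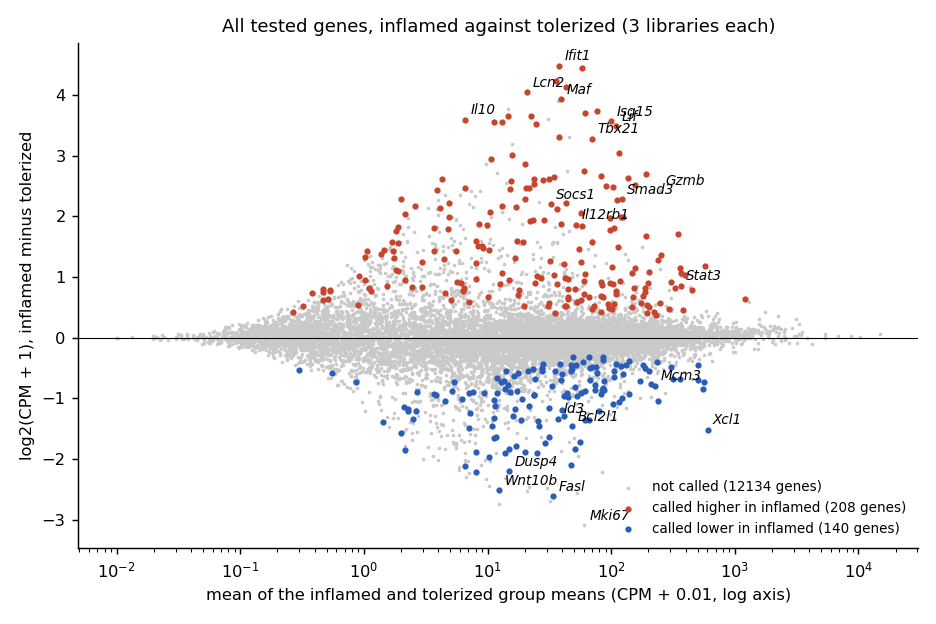
Each point is 1 of the 12482 tested genes, with its mean level (x, CPM, log axis) and its log2(CPM + 1) difference, inflamed minus tolerized (y). The 208 genes called higher (red) reach 4.49 and the 140 called lower (blue) reach -2.62, while Mki67 at -3.09 and Gzmb at 2.43 were not called.

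Antiviral genes induced by type I interferon made up the largest group of rises. Of 54 such genes tested, 32 rose and none fell, against 1.67% called higher over all genes tested. Of the 54, 53 had a positive difference and 40 were higher without overlap between the groups, against 9.13% of all genes. Their median difference was 1.87, against -0.01 over all genes tested. With the 2 groups alone 16 of them were called, and without tolerized 2 the number was 21. The summed level of the list was 901, 1096 and 2112 CPM in tolerized 1, 2 and 3 and 5355, 4375 and 3428 CPM in inflamed 1, 2 and 3, and the groups did not overlap.

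Isg15 encodes a ubiquitin-like protein that is attached to other proteins during interferon responses (chromosome 4, 156199424 to 156200818 in GRCm38, GENCODE annotation). It stood at 12.5, 12.2 and 18.8 CPM in tolerized and 248, 161 and 145 CPM in inflamed libraries. The lowest inflamed library thus exceeded the highest tolerized one several-fold, and the log2 difference was 3.57 ± 0.21 (adjusted p = 2.09e-05). Ifit1, which encodes a protein that binds foreign RNA (chromosome 19, 34640889 to 34650009), stood at 0.836, 1.27 and 7.39 CPM and at 83.9, 66.0 and 68.2 CPM, a difference of 4.49 ± 0.52 (adjusted p = 0.00116). Tolerized 3 was the highest of its group for this gene and still lay below every inflamed library. Usp18, the protease that removes ISG15 and damps interferon signalling, stood at 1.44, 1.81 and 12.6 and 107, 82.6 and 54.8 CPM (4.13 ± 0.58, adjusted p = 0.00325).

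Rises of about 2 log2 units or more were found at several steps of the response. Irf7, the transcription factor that amplifies interferon production, differed by 3.74 ± 0.60, with an adjusted p of 0.0811 where the 2 groups were fitted alone, and the viral RNA sensor gene Ifih1, chosen after its value was seen, by 2.54 ± 0.32. The 2'-5' oligoadenylate synthase-like genes Oasl1 and Oasl2 differed by 3.56 ± 0.29 and 3.66 ± 0.39, from 0.722, 0.692 and 1.98 CPM to 47.1, 22.6 and 14.4 CPM in the case of Oasl2. Rsad2, which encodes the antiviral enzyme viperin, went from 0.570, 0.826 and 1.22 CPM to 47.6, 17.4 and 10.6 CPM (3.56 ± 0.49), which limma-voom did not call (adjusted p = 0.0565). Bst2, which encodes tetherin, was even among tolerized libraries at 46.6, 46.1 and 46.3 CPM and reached 254, 177 and 147 CPM (2.0 ± 0.20, adjusted p = 0.000463). In Isg15, Bst2, Rsad2 and Oasl2 the order of the inflamed libraries was that of their neutrophil sums, highest in inflamed 1 and lowest in inflamed 3. In inflamed 3 the macrophage sum lay below and the neutrophil sum above those of all tolerized libraries. In every gene called higher all inflamed libraries lie above the tolerized ones, so nothing is drawn from that here. The part of neutrophils and macrophages in the interferon-stimulated genes was not tested. Without inflamed 1 the difference of Isg15 was 3.34 (adjusted p = 5.3e-05) and that of Ifit1 was 4.38 (adjusted p = 0.00811).

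The promoters of many risen genes hold the letters of the interferon response element, and 5 of them are printed here to show where these lie. The search used the letters GAAANNGAA on both strands, where N is any base, in the RefSeq window from 250 bases before to 50 bases after each start (GRCm38.p6). The 160 bases before the start are given 5′ to 3′ on the gene's strand, with every match in capitals and touching matches run together.
Ifit1, chr19:34640729-34640888, plus strand: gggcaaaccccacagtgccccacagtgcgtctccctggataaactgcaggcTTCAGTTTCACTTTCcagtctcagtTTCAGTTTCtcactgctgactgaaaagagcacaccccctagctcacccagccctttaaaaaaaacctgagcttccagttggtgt
Ifit3, chr19:34583369-34583528, plus strand: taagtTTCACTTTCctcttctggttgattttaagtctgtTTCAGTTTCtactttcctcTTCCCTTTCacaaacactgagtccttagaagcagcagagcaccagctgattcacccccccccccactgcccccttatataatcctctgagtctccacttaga
Isg15, chr4:156200819-156200978, minus strand: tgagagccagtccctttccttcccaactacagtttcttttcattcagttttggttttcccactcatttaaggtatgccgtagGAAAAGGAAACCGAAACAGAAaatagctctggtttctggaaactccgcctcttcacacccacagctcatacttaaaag
Rsad2, chr12:26456453-26456612, minus strand: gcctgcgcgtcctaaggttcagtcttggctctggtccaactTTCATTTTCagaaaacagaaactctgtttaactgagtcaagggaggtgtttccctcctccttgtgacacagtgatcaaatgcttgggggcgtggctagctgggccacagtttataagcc
Socs1, chr16:10785537-10785696, minus strand: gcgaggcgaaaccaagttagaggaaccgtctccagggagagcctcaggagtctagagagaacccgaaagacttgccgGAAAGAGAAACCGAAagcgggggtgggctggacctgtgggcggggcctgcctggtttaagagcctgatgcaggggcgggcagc
Ifit1, Ifit3 and Isg15 each held 3 matches, Socs1 held 2 that overlap, and Rsad2 held 1. In Isg15 the matches begin 78, 72 and 66 bases before the start.

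Over all 32851 RefSeq windows 8.56% held this element, as did 884 of 10031 tested genes with a window (8.81%). Among the genes called higher 163 had a window and 45 of them held it (27.6%), and among those called lower it was 8 of 108 (7.41%). On the list of 54 antiviral genes 22 of 42 with a window held it (52.4%), and 14 of 26 among those called higher (53.8%). Genes called higher outside this list held it in 31 of 137 cases (22.6%). The genes outside it still include interferon-regulated ones, such as GTPases, Schlafen genes and Socs1. The gamma-activated site to which STAT proteins bind, searched as TTCNNNGAA, was in 23 of 163 risen (14.1%) and 10 of 108 fallen genes (9.26%), against 8.50% of tested genes. The kappa-B letters GGGANTTTC were in 1 risen gene (0.613%) and 3 fallen genes (2.78%), against 1.16%. Such matches describe the letters of these windows only.

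Other interferon-regulated families rose with the antiviral genes. Of 18 interferon-inducible GTPases, which attack the vacuoles of intracellular pathogens, 9 rose (against 1.67% of all genes tested) and none fell (median 1.63). The call count was 5 without tolerized 2, without inflamed 1 or without inflamed 2. Irgm1 stood at 24.6, 30.1 and 37.2 CPM and 226, 178 and 129 CPM (2.48 ± 0.22, adjusted p = 0.000212), and Igtp and Irgm2 differed by 2.28 ± 0.31 and 1.88 ± 0.30. Tgtp1 differed by 3.04 ± 0.44, but its near-identical copy Tgtp2 may share its reads, as Ifit3 may with its neighbouring copy. Ly6a, which encodes the surface antigen Sca-1, went from 1.14, 2.81 and 10.2 CPM to 116, 172 and 46.4 CPM (4.45 ± 0.64, adjusted p = 0.00362), and it was the only one of 7 tested Ly6 genes to pass.

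In naive cells these families were not at the low tolerized level. Ifit1 stood at 18.6, 17.8 and 10.9 CPM in the naive libraries and Irgm1 at 108, 108 and 86.8 CPM, both between their tolerized and inflamed levels. Isg15, by contrast, stood at 9.83, 11.5 and 9.76 CPM in naive cells, near its tolerized level. The medians of the antiviral list were -1.65 for tolerized minus naive and 0.53 for inflamed minus naive, and those of the GTPase list were -2.54 and -0.75. These comparisons share libraries and are only set side by side.

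Of 8 Schlafen genes, growth regulators of T cells and macrophages, 4 passed as higher (median 1.78), against 1.67% of all genes tested. The count was 2 without tolerized 1 and 1 without tolerized 2, inflamed 1 or inflamed 2. Slfn8 stood at 9.38, 9.17 and 16.5 CPM and 45.5, 46.6 and 45.4 CPM (1.93 ± 0.26, adjusted p = 0.00268), though it shares sequence with neighbouring Schlafen genes. Slfn4, a gene of myeloid cells, stood at 3.42, 3.01 and 3.90 CPM and at 152, 58.5 and 8.29 CPM (3.31 ± 0.76, adjusted p = 0.0444), highest in inflamed 1 and lowest in inflamed 3, as the neutrophil sums were. The other two were Slfn9 (1.85 ± 0.33) and Slfn10-ps (0.98 ± 0.20), whose calls were both lost without tolerized 2, inflamed 1 or inflamed 2 (adjusted p = 0.0634 to 0.132), and that of Slfn10-ps also without tolerized 1 or inflamed 3. The Slfn4 call was lost without tolerized 1, 2 or 3 or inflamed 1 or 2 (adjusted p = 0.0755 to 0.162). Of the class I presentation genes 2 of 24 passed (median 0.43), the proteasome activator genes Psme1 (0.46 ± 0.10) and Psme2 (0.47 ± 0.10), and none passed without tolerized 2, inflamed 1 or inflamed 2.

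Feedback inhibitors of cytokine signalling were among the genes that rose. Of 20 STAT and SOCS genes 5 rose and 1 fell (median 0.21), against 1.67% and 1.12% of all genes tested. On this list 3 rises were called without tolerized 2, inflamed 1 or inflamed 2. Socs1, the inhibitor of interferon receptor kinases (chromosome 16, 10783808 to 10785536), stood at 14.1, 9.26 and 9.90 CPM in tolerized and 52.9, 56.7 and 51.9 CPM in inflamed cells, a difference of 2.20 ± 0.15 (adjusted p = 6.04e-05). Each inflamed library held more than 3 times the highest tolerized value. Cish, an inhibitor induced by IL-2 through STAT5, went from 48.8, 26.2 and 43.2 CPM to 174, 118 and 175 CPM (1.98 ± 0.27). Stat3 itself rose from 255, 245 and 278 CPM to 491, 425 and 495 CPM (0.85 ± 0.10, adjusted p = 0.00106), while Stat4, which carries the IL-12 signal, fell from 162, 144 and 185 CPM to 80.5, 88.2 and 76.3 CPM (-0.99 ± 0.16, adjusted p = 0.00687, and 0.072 without both tolerized 3 and inflamed 1).

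The calls of Socs3 and Bcl3 were lost when single libraries were left out. Socs3, the inhibitor of IL-6 receptor signalling, stood at 4.52, 2.95 and 12.0 CPM and 44.7, 51.4 and 26.2 CPM (2.61 ± 0.60, adjusted p = 0.0467), and its call was kept only without tolerized 3 among the 6 fits. Without each of the others its adjusted p was 0.0507 to 0.191. Naive cells held Socs3 at 171, 161 and 145 CPM, above every inflamed library. Bcl3, an NF-kB partner, went from 6.23, 8.08 and 13.5 CPM to 43.6, 31.4 and 36.3 CPM (1.94 ± 0.37, adjusted p = 0.0192), with the call lost without tolerized 2, inflamed 1 or inflamed 2 (adjusted p = 0.0599 to 0.103).

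**Figure D3:**
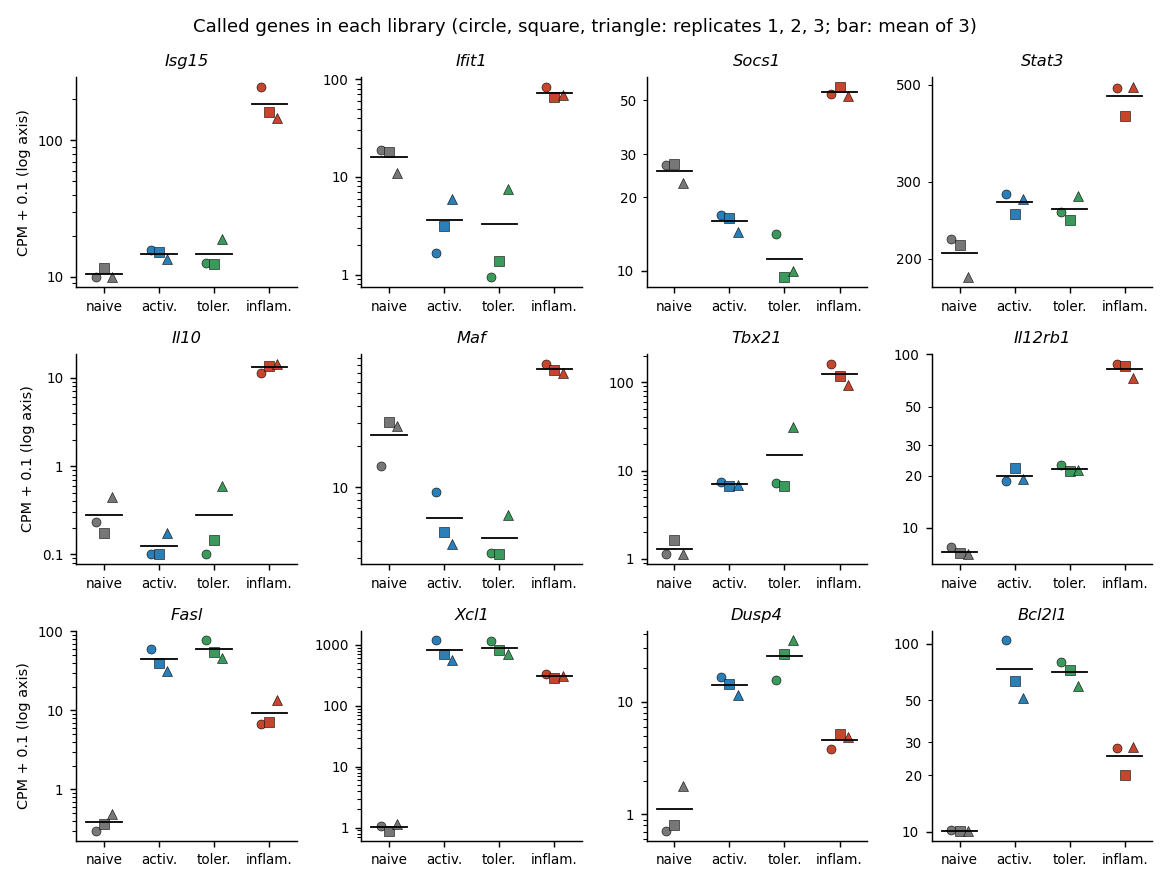
Level of 12 called genes in every library of the 4 groups (CPM + 0.1, log axes), with the mean of 3 as a bar. The top and middle rows show rises and the bottom row falls, and in each panel the inflamed and tolerized points do not overlap.

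Among secreted cytokines 4 of 18 tested genes rose and 1 fell (median 0.06), against 1.67% and 1.12% of all genes tested. Il10, the gene of an anti-inflammatory cytokine (chromosome 1, 131019845 to 131024970), had the smallest adjusted p of all genes. It was all but silent in tolerized cells at 0, 0.0446 and 0.495 CPM (0, 2 and 17 reads) and stood at 11.4, 13.4 and 14.4 CPM in inflamed cells, a difference of 3.59 ± 0.17 (adjusted p = 5.04e-06). Naive and activated libraries were likewise low, at 0.131, 0.0729 and 0.341 and 0, 0 and 0.0750 CPM. Il21, the cytokine gene of helper T cells, had 0 reads in each tolerized library and stood at 2.51, 5.06 and 4.44 CPM in inflamed cells, at least 141-fold higher than a floor of 3 reads over the tolerized group (2.29 ± 0.17 in the fit, adjusted p = 0.000118). Leaving out any inflamed library took it below the filter on low counts, so it could not be tested there.

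Lif, which encodes the IL-6 family cytokine LIF, went from 18.2, 11.6 and 22.3 CPM to 265, 168 and 177 CPM (3.49 ± 0.32, adjusted p = 0.000266), while naive libraries held 0, 0.240 and 0.131 CPM. Its tolerized values, unlike those of Il10, were already above the naive ones. Tnfsf8, which encodes CD30 ligand, stood at 32.2, 42.8 and 44.2 and 78.9, 80.1 and 90.7 CPM (1.06 ± 0.19, adjusted p = 0.014), and its call was lost without inflamed 2 (adjusted p = 0.0515). The cytokine that fell was Tnfsf11, which encodes RANKL, from 2.39, 2.75 and 2.42 CPM to 0.306, 0.370 and 0.348 CPM (-1.39 ± 0.12, adjusted p = 0.000208). The chemokine gene Xcl1, whose product attracts cross-presenting dendritic cells (chromosome 1, 164931644 to 164935522), fell from 1149, 828 and 718 CPM to 333, 287 and 303 CPM (-1.52 ± 0.24, adjusted p = 0.00688). It was the only one of 11 chemokine genes to pass, and naive libraries held it at 0.979, 0.771 and 1.05 CPM, far below either group. Interferon gamma was not called: Ifng stood at 105, 82.1 and 95.5 and 84.2, 66.5 and 65.3 CPM, with overlapping groups and a 95% interval of -1.05 to 0.28 for its log2 difference.

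Cytokine receptors rose in 6 of 26 cases and none fell (median 0.31), against 1.67% called higher over all genes tested. Of these receptors 2 were called without tolerized 2, 3 without inflamed 1, 3 without inflamed 2 and 3 with the 2 groups alone. Both chains of the IL-12 receptor were among the risen ones. Il12rb1, the chain shared with the IL-23 receptor (chromosome 8, 70808360 to 70823542), stood at 22.8, 21.2 and 21.5 CPM and 88.5, 85.8 and 72.6 CPM, a difference of 1.86 ± 0.11 (adjusted p = 2.09e-05). Il12rb2, the chain specific to IL-12, went from 1.75, 1.45 and 1.48 CPM to 6.97, 8.26 and 8.54 CPM (1.80 ± 0.15, adjusted p = 0.000169). Replicates of both genes were close together in either group. Il2ra, the inducible IL-2 receptor chain, stood at 327, 217 and 236 and 539, 411 and 659.6 CPM (1.04 ± 0.23, adjusted p = 0.0411), with the call lost without tolerized 2 or 3 or inflamed 1 or 3 (adjusted p = 0.0927 to 0.175). Il6st, which encodes the IL-6 family receptor chain gp130, stood at 212, 199 and 217 and 384, 399.9 and 409.8 CPM (0.92 ± 0.17, adjusted p = 0.0146), with the call lost without tolerized 2, inflamed 1 or inflamed 2 (adjusted p = 0.0563 to 0.0746). Its inflamed values were near the naive ones, 417, 375 and 331 CPM. The other two to pass were the IL-1 receptor gene Il1r1, at 0.114, 0.0446 and 0.233 and 1.16, 2.77 and 1.79 CPM (1.33 ± 0.29), and the IL-33 receptor gene Il1rl1, at 0.684, 0.513 and 0.553 and 1.71, 1.95 and 1.44 CPM (0.77 ± 0.14). Both calls were lost without tolerized 2 or inflamed 2 (adjusted p = 0.0738 to 0.141), that of Il1r1 also without tolerized 1 or 3 or inflamed 3 and that of Il1rl1 also without inflamed 1.

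Transcription factors of T cell fate moved in opposite directions. Of 23 on the list 4 rose and 2 fell, against 1.67% and 1.12% of all genes tested, with a list median of -0.01. Besides Tbx21 and Maf, the risen ones were Rora (1.12 ± 0.20) and Gfi1 (0.68 ± 0.13). Both calls were lost without tolerized 2 or inflamed 1, that of Rora also without inflamed 2 and that of Gfi1 also without tolerized 3 or inflamed 3 (adjusted p = 0.0515 to 0.0853). Tbx21, which encodes T-bet, the driver of effector differentiation (chromosome 11, 97098007 to 97115331), stood at 7.14, 6.65 and 30.7 CPM in tolerized and 163, 117 and 92.6 CPM in inflamed cells (3.28 ± 0.45, adjusted p = 0.00287). Tolerized 3 was the high one of its group. With the 2 groups alone its adjusted p was 0.0561. Maf, which encodes c-Maf, known as an activator of Il10 and Il21, went from 3.15, 3.08 and 6.17 CPM to 82.0, 73.7 and 69.3 CPM (3.94 ± 0.35, adjusted p = 0.000212), with naive libraries between them at 14.4, 30.3 and 28.0 CPM.

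Eomes and Id3 were the fate factors that fell. Eomes, the relative of T-bet linked to memory cells, stood at 279.8, 472 and 232 CPM and 176, 132 and 149 CPM (-1.04 ± 0.22, adjusted p = 0.033). Its call was lost without tolerized 2 or inflamed 1, 2 or 3 (adjusted p = 0.058 to 0.138). Id3, an inhibitor of E proteins found in naive and memory-fated cells, fell evenly from 45.2, 58.1 and 57.0 CPM to 20.2, 21.6 and 19.6 CPM (-1.33 ± 0.13, adjusted p = 0.000504). That placed Id3 slightly below the naive 23.8, 26.0 and 29.5 CPM, whereas Eomes stayed above the naive 3.72, 4.31 and 4.46 CPM. Satb1, a chromatin organiser of resting T cells, was the only 1 of 30 naive and quiescence genes to pass, at 207, 196 and 264 and 412, 541 and 529 CPM (1.15 ± 0.20, adjusted p = 0.0118), with the call lost without tolerized 2 or inflamed 2 (adjusted p = 0.0679 and 0.0659). Over all genes tested 2.79% were called, so 1 of 30 is not read as a result about that list.

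Killing molecules went both ways. Fasl, which encodes the death ligand Fas ligand (chromosome 1, 161780691 to 161788495), had the largest fall of all called genes, from 76.4, 55.3 and 45.9 CPM to 6.64, 6.97 and 13.5 CPM (-2.62 ± 0.30, adjusted p = 0.000999). Srgn, the proteoglycan gene of cytotoxic granules, rose from 229, 229 and 249.6 CPM to 479.8, 495 and 502 CPM (1.06 ± 0.09, adjusted p = 0.000169). Prf1, which encodes the pore-forming perforin, stood at 140.1, 134 and 141 and 311, 239.6 and 231 CPM (0.90 ± 0.19, adjusted p = 0.0289), with the call lost without tolerized 2 or 3 or inflamed 1 or 2 (adjusted p = 0.0653 to 0.121). Gzmb, which encodes granzyme B, stood at 35.4, 37.9 and 261 CPM and 434, 324 and 408 CPM and was not called (2.43 ± 0.60, adjusted p = 0.0644). The groups did not overlap, but tolerized 3 was several-fold above the other tolerized libraries, and without it the difference was 3.36 (adjusted p = 9.83e-05). In all, 2 of 18 effector molecules rose and 1 fell (median 0.43), against 1.67% and 1.12% of all genes tested.

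Of 20 inhibitory receptor genes 3 fell and 1 rose (median -0.05), against 1.12% and 1.67% of all genes tested. Cd200, an immunoglobulin family ligand with an inhibitory receptor on myeloid cells, fell from 37.3, 60.4 and 39.9 CPM to 13.2, 12.0 and 13.0 CPM (-1.74 ± 0.20, adjusted p = 0.00113). Cd274, which encodes PD-L1, stood at 161, 157 and 138 and 115, 84.7 and 99.7 CPM (-0.61 ± 0.12, adjusted p = 0.0192), with the call lost without tolerized 2 or inflamed 2 (adjusted p = 0.0974 and 0.0706), and Cd5 at 83.8, 103 and 91.8 and 52.7, 62.9 and 45.8 CPM (-0.78 ± 0.13, adjusted p = 0.00879), with the call lost without tolerized 2 (adjusted p = 0.0545). Tigit and Cd226 encode an inhibitory and an activating receptor for the same ligands. Tigit stood at 4.33, 15.8 and 9.64 CPM and 26.3, 28.9 and 30.7 CPM (1.59 ± 0.33, adjusted p = 0.0299), while Cd226 fell from 111, 90.4 and 122 CPM to 47.6, 55.8 and 65.5 CPM (-0.93 ± 0.13, adjusted p = 0.00318, and 0.0529 with the 2 groups alone). The Tigit call was lost without tolerized 3 or inflamed 1, 2 or 3 (adjusted p = 0.0623 to 0.108). Ctla4 stood at 1.60, 6.56 and 30.0 CPM and 29.3, 41.3 and 48.4 CPM and was not called (adjusted p = 0.144), with 30.0 CPM in tolerized 3 against 29.3 CPM in inflamed 1. Without tolerized 3 its difference was 3.17 (adjusted p = 0.00637).

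Genes of signalling and the cell surface were among the falls. Dusp4, a phosphatase that ends MAP kinase signals, went from 15.3, 26.3 and 34.8 CPM to 3.73, 5.06 and 4.77 CPM (-2.20 ± 0.29, adjusted p = 0.00255). Adora2a, the adenosine receptor that restrains T cells, fell from 74.1, 98.2 and 68.2 CPM to 19.1, 20.2 and 25.1 CPM (-1.84 ± 0.17, adjusted p = 0.000266), still above the naive 10.6, 9.75 and 10.1 CPM. Wnt10b, a secreted Wnt ligand, fell from 23.7, 25.4 and 15.5 CPM to 1.71, 2.18 and 5.66 CPM (-2.51 ± 0.32). Nrn1, which encodes neuritin, fell from 37.9, 41.6 and 38.0 CPM to 6.48, 7.85 and 17.6 CPM (-1.91 ± 0.28, adjusted p = 0.00449, and 0.0597 with the 2 groups alone). Naive libraries held Wnt10b at 0.109, 0.125 and 0.131 CPM and Nrn1 at 0.761, 0.427 and 0.394 CPM. The semaphorin gene Sema4c fell from 32.8, 26.2 and 21.8 CPM to 6.57, 6.21 and 8.29 CPM (-1.79 ± 0.27), the kinase gene Pak6 from 14.4, 13.6 and 11.5 CPM to 2.84, 2.75 and 2.91 CPM (-1.88 ± 0.19), and Stap1, an adaptor of tyrosine kinases, from 87.7, 83.9 and 61.0 CPM to 12.2, 17.2 and 24 CPM (-2.09 ± 0.23). Gpr174, a receptor for a lysophospholipid, fell from 36.2, 55.2 and 53.4 CPM to 15.9, 14.3 and 13.5 CPM (-1.64 ± 0.16), with naive libraries at 14.7, 13.0 and 15.1 CPM. Traf1, an adaptor of TNF receptors, fell from 131, 149 and 198 CPM to 78.6, 75.1 and 69.2 CPM (-1.07 ± 0.13, adjusted p = 0.00169), which is below its naive 137, 133 and 122 CPM.

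In the BCL-2 family, Bcl2l1, which encodes the survival protein BCL-XL, fell from 79.8, 72.5 and 59.9 CPM to 27.8, 19.8 and 28.2 CPM (-1.46 ± 0.23, adjusted p = 0.00646), above the naive 10.1, 10.0 and 9.97 CPM. Bbc3, which encodes the death-promoting PUMA, stood at 1.22, 1.07 and 1.11 and 2.90, 3.72 and 2.81 CPM (0.95 ± 0.19, adjusted p = 0.0212), and its call was lost without tolerized 2 or 3 or inflamed 1 or 2 (adjusted p = 0.0576 to 0.107). These were the only 2 of 26 family and death pathway genes to pass (median 0.01), against 2.79% of all genes tested. Of 22 glucocorticoid-responsive genes 3 rose (median 0.35), among them Fkbp5, a regulator of the glucocorticoid receptor, from 123, 142 and 153 CPM to 223, 241 and 239 CPM (0.75 ± 0.10, adjusted p = 0.00274). The others were Cdkn1a, given with the cell cycle genes, and Anxa1, which encodes the anti-inflammatory protein annexin A1, at 0.760, 0.647 and 0.728 and 10.9, 9.23 and 2.56 CPM (2.15 ± 0.47, adjusted p = 0.0365). The Anxa1 call was kept only without inflamed 3 among the 6 fits, and its adjusted p was 0.0625 to 0.158 in the rest.

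DNA replication genes made up the largest group of falls. Of 37 G1/S and replication genes 13 fell and none rose, against 1.12% called lower over all genes tested. On this list 26 were lower without overlap, against 9.18% of all genes, and the median was -0.58. The count of falls was 21 without tolerized 1, 3 without tolerized 2, 6 without tolerized 3, 4 without inflamed 1, 4 without inflamed 2, 8 without inflamed 3 and 4 with the 2 groups alone. The helicase subunit gene Mcm3 stood at 267, 313 and 280.4 CPM and 165, 168 and 162 CPM (-0.79 ± 0.10, adjusted p = 0.00147). Mcm5 stood at 383, 417 and 381 and 243, 239 and 249 CPM (-0.69 ± 0.10) and Mcm7 at 204, 221 and 215 and 135, 125 and 128 CPM (-0.72 ± 0.09), and the calls of these 3 genes held in each of the 6 fits. Tolerized 3 was not the highest library for Mcm3, Mcm5 or Mcm7. Naive libraries lay lower still, with Mcm3 at 48.1, 48.8 and 50.9 CPM, and activated libraries between the groups at 223, 225 and 179 CPM.

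Other cycle genes were highest in tolerized 3. Cdc6, which loads the replication helicase, stood at 4.56, 14.6 and 23.6 CPM and 1.74, 2.40 and 1.27 CPM (-2.22 ± 0.48, adjusted p = 0.0341), with its call lost without tolerized 2 or 3 or inflamed 1, 2 or 3 (adjusted p = 0.0805 to 0.144). Dtl, which targets replication factors for destruction, stood at 21.3, 37.0 and 38.5 and 6.12, 10.0 and 7.38 CPM (-1.89 ± 0.35, adjusted p = 0.0158), with its call lost without tolerized 2 or 3 or inflamed 1 (adjusted p = 0.0517 to 0.0861). All 30 G2/M genes had a negative difference (median -1.57) and 20 were lower without overlap, against 9.18% of all genes tested. Only 2 passed, against 1.12% called lower over all genes, the centromere histone gene Cenpa (-1.64 ± 0.37) and the spindle gene Tacc3 (-1.36 ± 0.28). The median of this list in the single tolerized libraries, relative to their mean, was -1.32, -0.14 and 1.44, and in the inflamed libraries it was -1.56, -1.46 and -1.65. Tolerized 1 thus lay near the inflamed libraries. So did the activated libraries, at -1.51, -1.43 and -1.57, while the naive ones were at -1.69, -1.62 and -0.69. Tolerized 2 and 3 were the highest of the 12 libraries, and the inflamed ones were not below the activated ones by much (median difference -0.13). Without tolerized 1, 26 of the 30 were called, without tolerized 3 it was 2, with the median at -0.81, and without tolerized 2, inflamed 1, inflamed 2 or inflamed 3 none was. Mki67 was among those not called, at 2.96, 48.5 and 301 CPM and 4.5, 5.72 and 1.59 CPM (adjusted p = 0.238), and its difference of -3.09 ± 1.18 was -4.74 without tolerized 1 (adjusted p = 0.00639). Without tolerized 3 the difference of Mki67 was -1.61 (adjusted p = 0.543), and without both tolerized 3 and inflamed 1 it was -1.75 (adjusted p = 0.679). Cdkn1a, which encodes the cell cycle inhibitor p21 (chromosome 17, 29090979 to 29100722), rose from 3.34, 3.62 and 4.37 CPM to 36.9, 26.5 and 15.8 CPM (2.45 ± 0.39, adjusted p = 0.00647, and 0.0562 without both tolerized 3 and inflamed 1). Its inflamed libraries followed the order of the neutrophil sums.

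**Figure D4:**
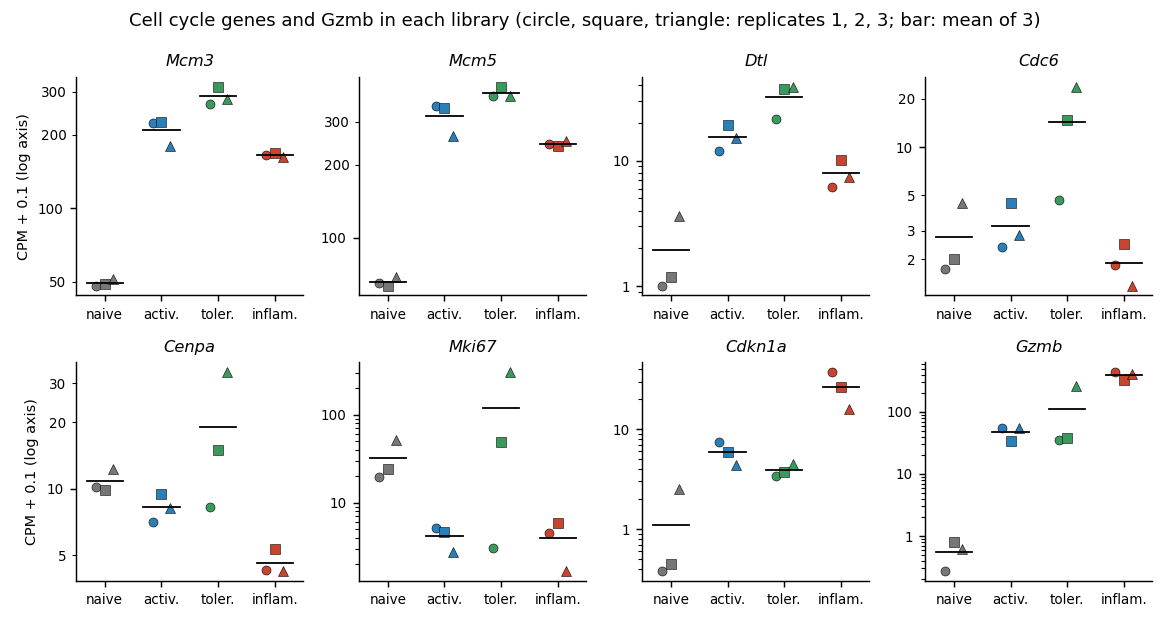
Level of 7 cell cycle genes and Gzmb in every library of the 4 groups (CPM + 0.1, log axes), with the mean of 3 as a bar. Mcm3 and Mcm5 are even within the tolerized group, whereas Cenpa, Mki67 and Gzmb are highest in tolerized 3 (triangle) among the tolerized libraries.

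Single genes passed on several other lists. Over all genes tested 2.79% were called, and a single call on a list of this size is not read as a result about that list. Of 23 anergy and deletion genes (median 0.00) the adaptor gene Sla was higher, at 121, 142 and 155 and 188, 212 and 220.4 CPM (0.57 ± 0.11), and Dgkz, a kinase that removes the messenger diacylglycerol, was lower (-0.46 ± 0.10). Of 16 T cell identity genes (median 0.03) Cd8a and the adhesion gene Cd2 (0.92 ± 0.19) were higher and the inhibitory Cd5 and its relative Cd6 (-0.50 ± 0.10) lower. Of 18 homing receptors (median -0.18) Gpr18 was higher, at 69.8, 83.3 and 90.0 and 156, 132 and 129.9 CPM (0.78 ± 0.16). The serine synthesis gene Psat1 (0.57 ± 0.10) was the one to pass of 24 ATF4 and amino acid genes (median 0.28), and Xbp1 (0.52 ± 0.10), a factor of the unfolded protein response, of 24 endoplasmic reticulum chaperone genes (median 0.09). All of these calls were lost without tolerized 2 (adjusted p = 0.0542 for Psat1 and up to 0.181 for Cd8a), and those of Psat1 and Cd5 were lost in that fit alone among the 6.

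Core genes of antigen activation and growth did not pass. The receptor gene Tnfrsf9 stood at 849.6, 820.1 and 559 CPM and 863, 662 and 818 CPM, with a 95% interval of -0.34 to 0.51 for its log2 difference. Myc stood at 1092, 876 and 722 and 940.4, 704 and 1027 CPM (-0.56 to 0.55), Irf4 at 825, 630.1 and 611 and 709.9, 672 and 731 CPM (-0.74 to 0.83), and the inhibitory receptor genes Lag3 and Pdcd1 had intervals of -0.51 to 0.45 and -0.55 to 0.51. Groups overlapped in each of these 5 genes, and intervals this wide do not show that levels were equal. Over all genes tested 1.12% were called lower. Of the 24 transcription factor genes induced through the T cell receptor 1 fell and none rose (median 0.02). It was Nfkb1, which encodes an NF-kB subunit, at 817, 672 and 624 and 434, 369.8 and 461 CPM (-0.74 ± 0.17, adjusted p = 0.047), and its call was lost in each of the 6 fits. Neither limma-trend nor limma-voom called any of 32 ribosome biogenesis genes (median 0.04), 29 oxidative phosphorylation genes (0.03), 23 glycolysis genes (-0.04), 26 sterol and fatty acid genes (0.07) or 16 integrin genes (-0.26). At an unadjusted p under 0.05 these lists held 0, 0, 6, 1 and 5 genes, against 1834 of all genes tested.

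Few genes of LPS sensing or of innate cells passed the test. The receptor gene Tlr4 stood at 2.32, 1.65 and 1.28 CPM and 5.75, 2.16 and 0.596 CPM, and neither limma-trend nor limma-voom called any of 21 genes of the LPS receptor pathway (median 0.25), of which 7 were higher at an unadjusted p under 0.05. Of 14 tested neutrophil markers 1 passed, Lcn2, which encodes an iron-scavenging protein, at 0.0760, 0.268 and 0.699 CPM and 92.5, 28.8 and 2.76 CPM (4.05 ± 0.86, adjusted p = 0.0313). All 14 had a positive difference (median 1.67), and 13 were higher at an unadjusted p under 0.05 by limma-trend. Without overlap 7 were higher, against 9.13% of all genes tested. Without inflamed 3 13 were called, whereas without inflamed 1 none was and the median was 1.16. The Lcn2 call was lost without tolerized 1, 2 or 3 or inflamed 1 or 2 (adjusted p = 0.0623 to 0.127). The calprotectin gene S100a9 stood at 0.912, 1.41 and 4.4 and 123, 48.8 and 6.26 CPM (adjusted p = 0.0731), and the macrophage receptor gene Marco at 2.17, 1.03 and 0.640 and 170.4, 45.9 and 3.33 CPM (adjusted p = 0.107). All 3 genes were highest in inflamed 1 and lowest, within the group, in inflamed 3. Both tools called none of 21 macrophage markers (median 0.48, and -0.60 without inflamed 1) and none of 20 B cell markers (median -0.12), with 3 and 1 at an unadjusted p under 0.05. The part of neutrophils and macrophages in the other results was not tested.

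**Figure D5:**
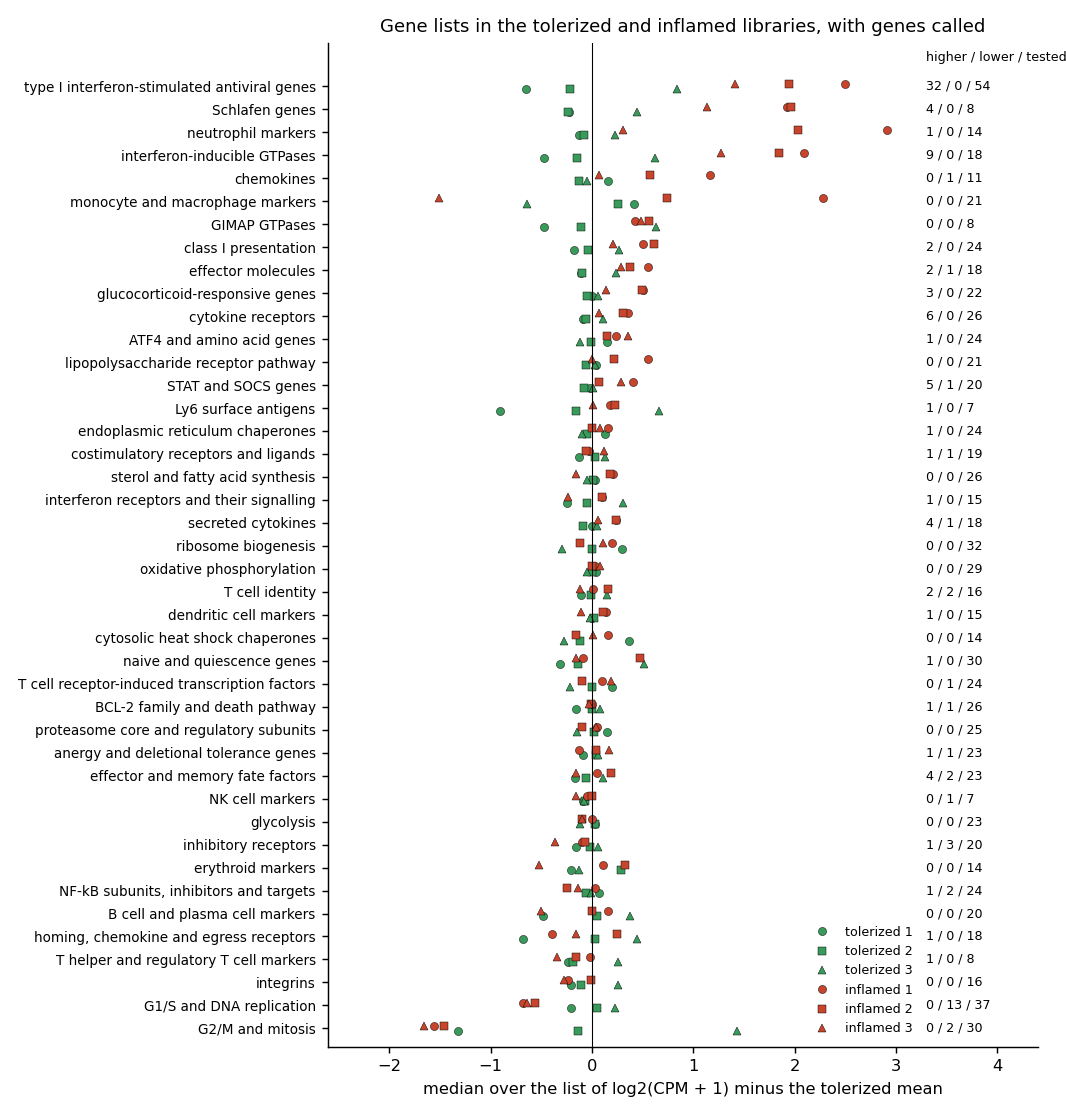
Median over each gene list (rows) of log2(CPM + 1) minus the tolerized mean, for the 3 tolerized (green) and 3 inflamed (red) libraries, with the numbers of genes called higher and lower and tested at the right. Interferon-stimulated genes (median 1.87) and G1/S genes (-0.58) show inflamed libraries apart from the tolerized ones, and neutrophil and macrophage markers show wide spread among inflamed libraries.

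Set against antigen without blockade or LPS, 192 genes were higher (1.54%) and 47 lower (0.377%) in inflamed than in activated cells, 239 or 1.91% together (limma). With these 2 groups alone and replicate numbers as a block 62 were higher and 7 lower, though these numbers are not shown to be pairs. Without activated 2 it was 107 in all, without inflamed 1 it was 124 and without inflamed 2 it was 120. The inflamed libraries are shared with the comparison above, and the tolerized ones enter through the estimate of spread that all 12 libraries share. Il10 differed from activated cells by 3.77 ± 0.17 (adjusted p = 3.03e-06), Isg15 by 3.53 ± 0.21 (1.99e-05), Maf by 3.57 ± 0.35 (0.000459), Il12rb1 by 2.0 ± 0.11 (1.53e-05), Fasl by -2.18 ± 0.30 (0.00385) and Xcl1 by -1.33 ± 0.24 (0.018). The replication genes Mcm3 and Dtl did not pass here, with Mcm3 at -0.33 ± 0.10 (adjusted p = 0.155) and Dtl at -0.88 ± 0.35 (0.408). Gzmb passed here, at 3.03 ± 0.60 (adjusted p = 0.0277), with activated libraries at 54.7, 33.5 and 54.1 CPM. With the block in the 2 groups the calls of Il10, Isg15, Maf, Il12rb1 and Gzmb held (adjusted p = 0.00421 to 0.00942), while those of Fasl (0.117) and Xcl1 (0.0849) were lost. With 1 library left out, the Gzmb call was lost in each of the 6 fits (adjusted p = 0.0652 to 0.135). That of Xcl1 was lost without activated 2, inflamed 1 or inflamed 2 (adjusted p = 0.0527 to 0.0721), and the other 5 genes stayed called in all 6 fits. Against naive cells 4615 genes (37.0%) were higher and 4417 (35.4%) lower in inflamed cells, 9032 or 72.4% in all. With library size alone as the scale, which moved the median of all genes to -0.27, the numbers were 3607 higher and 5744 lower.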

How the data were processed

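Messenger RNA was sequenced on an Illumina HiSeq in 12 libraries, 3 per group. Per the submitters' processing notes, TopHat2, bedtools and DESeq and the builds mm10 and GRCm38 were used, with no versions, order or roles. The extraction text in the labels speaks of cultured embryonic fibroblasts, unlike the rest of the labels. The deposited table gives 1 read count per gene and library, per the file header, as whole numbers with commas and not normalized. Stored with commas, the values are not read as plain counts by a format check, so limma-trend was used in place of the negative binomial test that counts call for. Strand of counting is not stated, so antisense reads cannot be told apart, and among values of 1 to 20 reads 55.6% to 64.4% were even, so read pairs may count as 2.

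Commas were removed and CPM computed on library sizes corrected by trimmed-mean (TMM) factors, coded from their formula (0.897 to 1.22). Genes needed at least 0.258 CPM (10 reads at the median library) in 3 libraries and 15 reads in all. A model with a mean for each of the 4 groups was fitted to log2(CPM + 1) of all 12 libraries by limma-trend, version 3.58.1 under R 4.3.3, and p-values were adjusted over 12482 genes in each comparison. It was tested on simulated reads with known changes. The counting floor is 3 reads and covers counting error only. Of 883 genes on 43 lists 863 were matched, 17 by gene ID. Coordinates are GRCm38, from GENCODE. Genes to name were the top 20 called genes in each direction by size of change (non-overlapping groups, a mean of 10 CPM or more in one of them, no predicted genes or receptor segments), the 6 list members of lowest adjusted p (every member of a list under 12 genes), and reference genes such as Ifng, Gzmb and Mki67. Others are said to be chosen after their values were seen, and some genes under the rule are not reported here. The comparison and lists were chosen with earlier results of these data known.

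Deviations of same-numbered inflamed and activated libraries from their group means had correlations of r = 0.64, 0.23 and 0.15. Only inflamed 1 correlated best with its own number, while inflamed 2 did so with activated 3 (r = 0.56) and inflamed 3 with activated 2 (r = 0.25). For inflamed and tolerized libraries the same-number correlations were 0.27, -0.07 and -0.17. The numbers were therefore not taken as pairs with either group, the unpaired fit was kept as planned, and the replicate block is an alternative. Alternatives were scaling by median of ratios, upper quartile or library size, limma-voom, a filter of 5 CPM or none, pseudocounts of 0.1 and 5, fewer groups, the replicate block, each library left out, at least 2-fold change and, added after the data were seen, leaving out tolerized 3 and inflamed 1 together.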

Additional observations from a re-analysis of the deposited data

How the results depend on the processing

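Of the 348 genes called between inflamed and tolerized cells 98 (66 higher, 32 lower) stayed called under all but the replicate block in the 2 groups. None changed sign under any of the 19 alternatives. The groups do not overlap in any of these 348 genes, so most alternatives could not have reversed a sign, and nothing is drawn from it. At least 2-fold change left 174 genes, the 2 groups alone 158, the 9 antigen-exposed libraries 195, and leaving out 1 library 156 to 539 (193 without both tolerized 3 and inflamed 1). With the replicate block in the 2 groups 0 genes passed by limma-trend (smallest adjusted p = 0.0638), with 1376 at an unadjusted p under 0.05 against 1470 without the block, and with the block in all 12 libraries it was 347. Only inflamed 1 of the inflamed libraries correlated best with its own number (r = 0.27), while inflamed 2 did so with tolerized 3 (r = 0.54) and inflamed 3 with tolerized 1 (r = 0.13), so the numbers were not taken as pairs. The block left 0 genes on every list below. Antiviral genes (32) were 16 with the 2 groups alone and 21 to 43 with a library left out. GTPases (9) were 5 with 9 libraries and 5 to 11. Schlafen genes (4) were 2 with library size alone, 2 with the 2 groups, 2 with 9 libraries and 1 to 5. STAT and SOCS genes (5) were 3 with 9 libraries and 3 to 6. Cytokine receptors (6) were 3 with the 2 groups, 3 with both libraries out and 2 to 5. Fallen G1/S genes (13) were 4 with the 2 groups, 8 with 9 libraries, 3 with both libraries out and 3 to 21. Fallen G2/M genes (2) were 1 with library size alone, 1 with no filter, 1 by limma-voom, 0 with the 2 groups, 0 with 9 libraries, 0 with both libraries out and 0 to 26. The macrophage median of 0.48 became -0.60 without inflamed 1, 1.52 without inflamed 3 and -0.71 with both libraries out. Against activated cells 239 calls became 123 at 2-fold or more, 101 with the 2 groups, 144 with 9 libraries, 69 with the replicate block in the 2 groups, 228 with it in all libraries and 107 to 327 with a library left out. Against naive cells 9032 became 4651 at 2-fold or more, 8502 with the replicate block in the 2 groups and 8148 to 8560 with a library left out, and upper-quartile scaling moved the median to -0.17. The cause of these changes was not tested. Of 118 called genes that the naming rule or the text picks, not all of them described above, all 118 were lost with the replicate block in the 2 groups, 52 without tolerized 2, 47 without inflamed 2, 45 without inflamed 1, 22 without tolerized 3, 21 without inflamed 3 and 15 without tolerized 1. Losses were 48 with the 2 groups alone, 45 with both libraries out, 34 with 9 libraries, 23 with no filter, 16 with library size, 14 by limma-voom and 8 or fewer under the other 6 alternatives. With 3 libraries per group and the spread taken from all 12, the median 95% interval was ± 0.34 on the log2 scale. Il21, Il23r and Il17f could not be tested without an inflamed library.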

Other observations

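Genes outside the lists changed as well, and those given here were chosen after their values were seen. Smad3, a transducer of TGF-beta signals, stood at 39.6, 28.5 and 58.1 CPM in tolerized 1, 2 and 3 and at 207, 189 and 207 CPM in inflamed 1, 2 and 3 (log2 difference 2.28 ± 0.21, limma adjusted p = 0.000325), with naive libraries at 32.7, 33.6 and 31.4 CPM. Notch1, a receptor that shapes effector fate, went from 153, 114 and 153 CPM to 357, 326 and 332 CPM (1.28 ± 0.15, adjusted p = 0.00139), and Tnip3, an inhibitor of NF-kB signalling, from 5.74, 6.45 and 4.63 CPM to 28.7, 24 and 33.2 CPM (2.16 ± 0.17, adjusted p = 0.000138). The pseudokinase gene Trib2 went from 28.9, 25.5 and 66.0 CPM to 193, 265 and 243 CPM (2.63 ± 0.39), near its naive 219.9, 229.6 and 196 CPM. Il23r and Il17f, the IL-23 receptor and IL-17F genes, passed at levels near 1 CPM: Il23r at 0.0760, 0 and 0 and 0.612, 0.740 and 0.795 CPM (adjusted p = 0.0017) and Il17f at 0, 0.134 and 0.116 and 0.703, 1.13 and 0.646 CPM (adjusted p = 0.00449). Neither passed with the 2 groups alone (adjusted p = 0.0699 and 0.121). Both met the filter on low counts only through the inflamed libraries. Leaving out any inflamed library took them below it, so they could not be tested there.

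Ccng1 and Phlda3, both known as targets of p53 along with Cdkn1a, passed as higher too. They were picked after their values were seen, no list of p53 targets was counted, and p53 activity was not tested. Ccng1 stood at 142, 126 and 149 CPM and 233, 237 and 202 CPM (0.69 ± 0.10, adjusted p = 0.00426) and Phlda3 at 2.55, 2.19 and 2.97 and 9.48, 8.10 and 8.19 CPM (1.43 ± 0.18, adjusted p = 0.00178). A further such target, Zmat3, passed less firmly, with a difference of 0.90 (limma adjusted p = 0.0424). Its call was lost without tolerized 1 or 2 or inflamed 1 or 2 (adjusted p = 0.0866 to 0.171) and with the 2 groups alone (0.143). Among further genes that fell were Hdac7, a histone deacetylase of T cells, from 765, 722 and 625 CPM to 343, 381 and 457 CPM (-0.84 ± 0.12, adjusted p = 0.004), the adhesion molecule gene Alcam, from 24, 53.4 and 40.5 CPM to 12.5, 12.6 and 13.7 CPM (-1.46 ± 0.24, adjusted p = 0.00764), and Spn, which encodes CD43, from 639.8, 569 and 665 CPM to 394, 396 and 359.5 CPM (-0.70 ± 0.12, adjusted p = 0.011). The genes of this paragraph and of the one before were not tested as sets.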
